A study of Saccharomyces cerevisiae with 21 samples.

Results

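A Saccharomyces cerevisiae strain carrying a humanized form of yeast U1C (h-yU1C), grown to an OD600 of about 8, was compared with its wildtype (WT) grown to an OD600 of about 5. The members were the 6 high-density libraries, 3 labelled h-yU1C and 3 labelled WT, of 21 libraries in 7 groups in the series, and every coding sequence with enough reads was tested. Both high-density groups were past the logarithmic phase according to the study design. The study repeated the pair with 3 libraries of each strain at an OD600 of about 0.4, used here only to see where the high-density differences held, and its Luc7 mutant and degron libraries were not used. The labels give neither the strain background, nor the residues changed in U1C, nor which of rich or dropout medium a culture grew in, so a difference in medium cannot be told apart from strain. Strain and density moved together at high density, 8 against 5, so their effects cannot be told apart there. The labels also do not say that the 3 libraries of a group came from separate cultures, so each p-value reflects only how far these libraries spread, which may be technical.

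U1C, encoded by YHC1, is a zinc finger protein of the U1 small nuclear ribonucleoprotein (U1 snRNP). It sits beside the base pairs that the U1 RNA forms with the 5′ splice site at the start of an intron, and so takes part in choosing that site. Few yeast genes carry an intron, most of these carry the same consensus at the 5′ splice site, and the ribosomal protein genes are the most abundantly transcribed of them. As glucose becomes scarce toward the end of growth, yeast is known to lower ribosomal protein genes and to raise respiratory, stress and reserve carbohydrate genes.

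The sites below show the splice junctions that U1 reads in genes the results turn on. Each line gives the last 8 bases of the exon and the first 12 bases of the intron on the coding strand of the R64 (sacCer3) build, with the 6 bases of the 5′ splice site in capitals. 
NCB2 (chrIV:1266770-1266861, − strand): tcccaaggGTATGTtagtta
ERV1 (chrVII:543639-543721, + strand): ggcaaaccGTATGTtggatt
TMA20 (chrV:166772-166874, − strand): tttaagaaGTATGTctaaca
DBP2 (chrXIV:414912-415913, + strand): aggtatcgGTATGTtaaaat
RPS22B (chrXII:856575-857057, + strand): aaagcatgGTATGTtccaac
RPS14B (chrX:73797-74204, + strand): ggctaacgGTACGTgaaagg
EFM5 intron 1 (chrVII:497938-497999, − strand): tatgaattGTAAGTacagga
EFM5 intron 2 (chrVII:497366-497458, − strand): aacaaagtGTATGTatatca
YDL012C (chrIV:431387-431472, − strand): aacaaagcGTACGTtaattt
QCR9 (chrVII:859261-859473, − strand): ctaaaatgGTATGTtggtgt
QCR10 (chrVIII:107832-107894, + strand): caatggcgGTAAGTatccta
RRT8 (chrXV:240948-241025, − strand): cattcttaGTAAGTacatga
REC114 (chrXIII:537449-537564, + strand): tgaaatggGTATGTatgcat
RRT8, QCR10 and the first intron of EFM5 carry GTAAGT, RPS14B and YDL012C carry GTACGT, and the other introns shown carry the consensus GTATGT.

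Of 6119 tested genes, 978 (16.0%) were higher and 774 (12.6%) were lower in h-yU1C than in WT at a Benjamini-Hochberg adjusted p below 0.05 in edgeR's quasi-likelihood test, 28.6% in all. The changes were mostly moderate, since 83 of the genes called higher and 61 of those called lower differed by 2-fold or more. In 46.0% of tested genes every h-yU1C library lay on one side of every WT library. Most genes named below were picked for a low p or a large fold change, so a lack of overlap in them is no added support. The median log2 fold change of all tested genes was 0.00 with an SD of 0.42 over genes. Of the calls 55.8% were higher in h-yU1C. On log2(TPM + 1), a scale per kilobase tested with limma, the median of all genes moved to 0.17, and 1780 higher and 283 lower calls gave a split of 86.3% higher. Values below are therefore read against the median of all genes on the same scale. Counts of called members of a list are read against the 16.0% higher and 12.6% lower of all tested genes in this fit. A list count from another fit, or with a library left out, is read against the calls of all genes in that fit. Those calls changed too, as given in the next paragraph and in the section on processing.

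Libraries held 31.1, 30.4 and 46.8 M assigned reads in h-yU1C and 45.5, 31.2 and 29.6 M in WT. The deepest of each group, h-yU1C replicate 3 and WT replicate 1, also had the shortest estimated fragments in their groups, by the bases that the authors' effective lengths take off a coding sequence (287, 302 and 163 in h-yU1C, against 180, 239 and 229 in WT). Sequences under 450 bases took 5.78, 6.41 and 7.91% of the reads in h-yU1C libraries and 8.87, 9.40 and 7.32% in WT libraries, so the groups overlapped (exact permutation test, two-sided p = 0.2, n = 3 each). A fit with a per-library offset for GC content and coding length called 1258 genes higher and 1483 lower of 5668. With h-yU1C replicate 1, h-yU1C replicate 2 or WT replicate 1 left out, the higher and lower calls fell to 468 and 368, 429 and 370, and 466 and 338. Without both of the deepest libraries they fell to 238 and 190. STE2 and STE6, which a cells express, had 939 to 1034 and 412 to 472 reads per M in h-yU1C, against 856 to 994 and 333 to 474 in WT. Other a-cell markers were less even. BAR1 had 529, 514 and 513 in h-yU1C and 358, 327 and 359 in WT. AGA2 had 15.3 in h-yU1C replicate 2 and 40.7 in h-yU1C replicate 3. MFA1 and MFA2 did not exceed 2.78 in any high-density library. In each group both were highest in the library of shortest estimated fragments. They had 2.78 and 2.11 in h-yU1C replicate 3 and 1.45 and 1.49 in WT replicate 1. Whether fragment length accounts for their few reads was not tested. Among the alpha-cell markers SAG1 had the most reads, 44.2 to 47.9 in h-yU1C and 42.5 to 47.3 in WT. LEU2 and LYS2, common auxotrophic markers, had no read in any of these libraries, against URA3 at 567, 672 and 660 reads per M in h-yU1C and 545, 609 and 472 in WT.

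**Figure D1:**
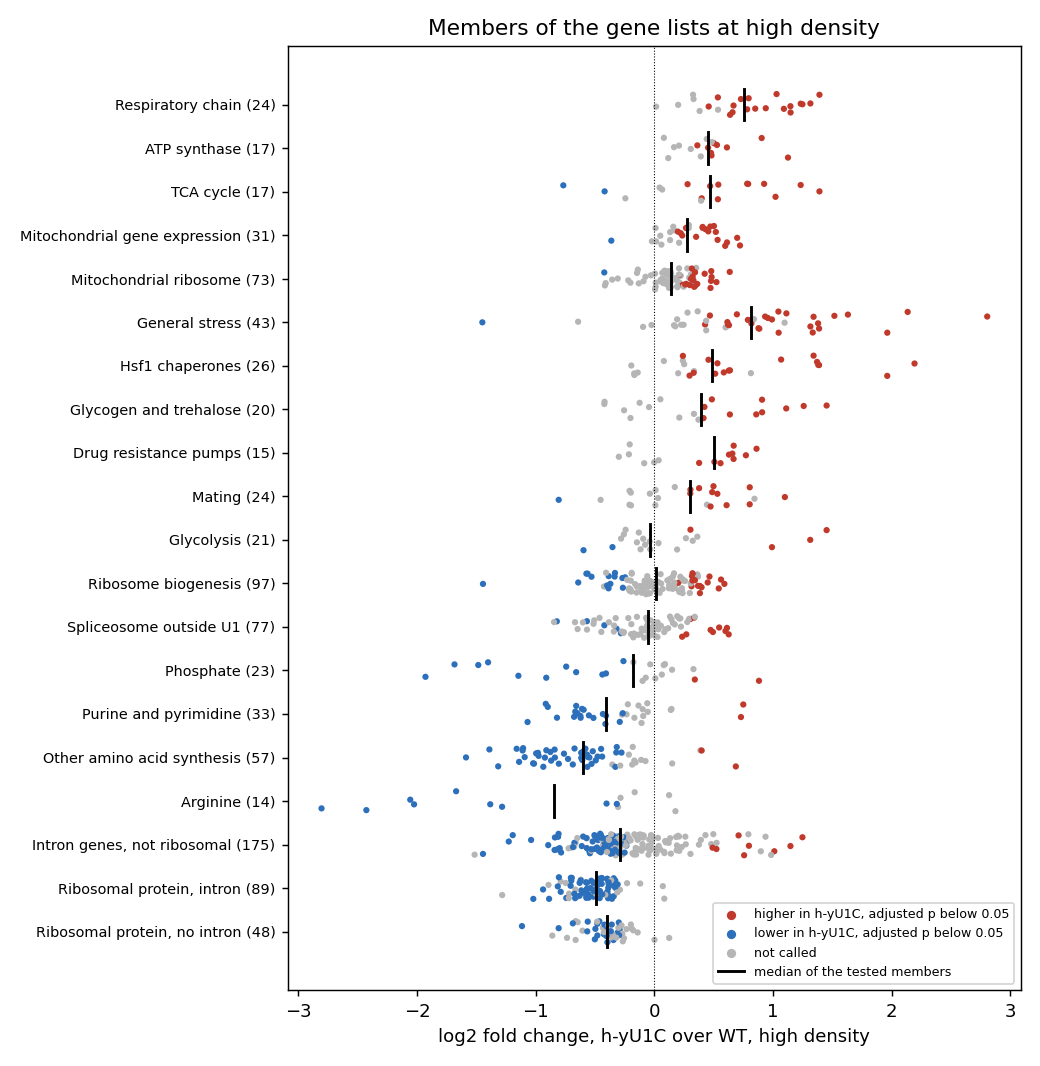
Each point is the log2 fold change, h-yU1C over WT at high density, of 1 tested member of a gene list (number tested in brackets), and the black line is the list's median. Respiratory, ATP synthase, stress and chaperone lists lie to the right of 0 and arginine, amino acid and ribosomal protein lists to the left, with medians from 0.81 for general stress to −0.84 for arginine.

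YHC1 itself was slightly lower in h-yU1C. It had 27.3, 30.1 and 33.1 CPM in the h-yU1C libraries, against 38.6, 41.1 and 36.2 CPM in the WT libraries (log2 fold change −0.35 ± 0.09, adjusted p = 0.0284), where ± is the standard error (SE) and CPM are reads per M after TMM normalization over the 6 libraries. The groups did not overlap, as in 46.0% of all tested genes. The call was lost with any of h-yU1C replicate 1, h-yU1C replicate 2, WT replicate 1 or WT replicate 2 left out (adjusted p = 0.0845, 0.0816, 0.0985 and 0.0505). Since reads from either allele could be assigned to the deposited YHC1 sequence, this level is no check of the humanized residues. LUC7, a U1 snRNP protein that also acts at the 5′ splice site, had 37.0, 46.7 and 43.3 CPM in h-yU1C against 34.5, 40.1 and 33.1 CPM in WT, and the groups overlapped (log2 fold change 0.24 ± 0.11, adjusted p = 0.151). It was called higher on the TPM scale (0.41 against a median of 0.17 for all genes, adjusted p = 0.0136) and with the length offset (adjusted p = 0.0191). Of 10 U1 snRNP genes tested, NAM8, which stabilizes U1 at weak 5′ splice sites, was the 1 called higher, and YHC1 the 1 called lower. NAM8 had 104, 97.7 and 85.8 CPM in the h-yU1C libraries, against 66.4, 71.6 and 75.4 CPM in the WT libraries. NAM8 had a log2 fold change of 0.43 ± 0.09 (adjusted p = 0.0120). Its call was lost without h-yU1C replicate 1, h-yU1C replicate 2 or WT replicate 1 (adjusted p = 0.0602, 0.0652 and 0.0576). Among 77 genes of the rest of the spliceosome 10 were higher and 5 lower, with a median log2 fold change of −0.05. The counts were 5 and 0, 5 and 1, and 5 and 0 without h-yU1C replicate 1, h-yU1C replicate 2 and WT replicate 1, and 5 and 12 without h-yU1C replicate 3. Fits of 4 and of 7 groups gave 12 and 12, and 16 and 17, and the length offset 13 and 15, so neither direction prevailed throughout. Of the called genes, MSL5, the branch point binding protein, had 136, 145 and 140.2 CPM in h-yU1C against 86.3, 98.9 and 90.9 CPM in WT. The fitted log2 fold change of MSL5 was 0.61 ± 0.07 (adjusted p = 0.00129). CWC2, which binds the U6 RNA of the active spliceosome, was 1.54-fold higher (adjusted p = 0.00101), and SLU7, a factor of the second splicing step, 1.41-fold higher (adjusted p = 0.00235). For all 3 genes every h-yU1C library lay above every WT library, and 46.0% of all tested genes separated the groups in 1 direction or the other. The uncharacterized gene YLR297W, 287 bases from YHC1 on chromosome XII, had 7.93, 7.37 and 7.79 CPM in h-yU1C against 23.5, 22.9 and 19.4 CPM in WT. For YLR297W the log2 fold change was −1.51 ± 0.12 (adjusted p = 0.000421). At low density YHC1 had 29.7, 27.3 and 28.1 reads per M in h-yU1C against 36.7, 31.5 and 32.6 in WT. LUC7 had 48.9, 56.9 and 46.9 reads per M in h-yU1C against 35.5, 40.3 and 37.7 in WT there. None of the 10 U1 snRNP genes was called at low density.

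Intron genes outside the ribosome were lower in h-yU1C on balance. Of 175 tested, 67 were lower and 8 higher, with a median log2 fold change of −0.29, against 12.6% lower and 16.0% higher of all genes. They took 2.18 ± 0.0472% of the reads in h-yU1C libraries and 2.47 ± 0.0578% in WT libraries (SD, n = 3 each), without overlap, at the smallest p of 0.1 that the exact permutation of 20 splits allows (two-sided). The lower count fell to 32, 36 and 29 with h-yU1C replicate 1, h-yU1C replicate 2 or WT replicate 1 left out, to 18 without both of the deepest libraries and to 29 on the TPM scale, and it was 86 with the length offset. The higher count was 4 to 12 with any 1 library left out, 21 on the TPM scale and 14 with the length offset. By site, among 126 genes with the consensus GTATGT at their first intron 58 were lower and 5 higher with a median of −0.33, and among 49 with another site 9 were lower and 3 higher with a median of −0.05. Relative to all genes the median of the other sites was −0.05, against 0.02 with the length offset and 0.01 without WT replicate 1, so its sign was not stable. Without h-yU1C replicate 1, h-yU1C replicate 2 and WT replicate 1, the lower count fell to 29, 33 and 27 for the consensus and to 3, 3 and 2 for the other sites. On the TPM scale 11 consensus genes were higher and 25 lower, while of the other sites 10 were higher and 4 lower. Calls over all genes on that scale were 1780 higher and 283 lower. With the length offset 7 consensus genes were higher and 69 lower, and of the other sites 7 and 17. Of the other sites, the 13 genes with GTAAGT counted 3 higher and 2 lower (median −0.13), the 10 with GTACGT 0 higher and 2 lower (0.11), the 6 with GTATGC 0 higher and 3 lower (−0.33) and the 6 with GCATGT none in either direction (0.39). The class of other sites includes HAC1, whose intron the spliceosome does not remove. It also holds more genes with few reads. At a mean of 10 CPM or more, 34 of its 49 genes remained, with 9 lower and a median of −0.104. Of the 126 consensus genes 112 remained, with 58 lower and a median of −0.335. The classes thus differed in reads as well as in site, and the difference between them was not tested. Genes with the branch sequence TACTAAC (135, 52 lower) had a median of −0.31, and those without it (40, 15 lower) −0.18. The last base of the exon, which U1 also contacts, gave medians of −0.29 for G (66 genes), −0.24 for A (51), −0.33 for C (26) and −0.33 for T (32). Since reads were counted over spliced coding sequences, unspliced RNA was not analysed here, and exon reads of unspliced transcripts counted toward these genes too.

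NCB2, part of the NC2 complex that represses transcription, whose GTATGT site is shown above, had 18.3, 19.2 and 18.6 CPM in the h-yU1C libraries, against 42.5, 38.0 and 34.7 CPM in the WT libraries. NCB2 had a log2 fold change of −1.04 ± 0.09 (adjusted p = 0.000605). The highest h-yU1C library held less than the lowest WT library. ERV1, the sulfhydryl oxidase of mitochondrial protein import, had 22.2, 24.8 and 22.8 CPM in the h-yU1C libraries, against 43.0, 46.1 and 40.8 CPM in the WT libraries. The fitted log2 fold change of ERV1 was −0.90 ± 0.08 (adjusted p = 0.000605). TMA20, a ribosome recycling factor, had 78.2, 82.3 and 78.4 CPM in the h-yU1C libraries, against 124, 127 and 114 CPM in the WT libraries. For TMA20 the log2 fold change was −0.61 ± 0.06 (adjusted p = 0.000969). All 3 genes separated the 2 groups, as did 46.0% of all tested genes, and naming genes by low p favours such separation. DBP2, a DEAD-box RNA helicase whose intron of 1002 bases (chrXIV:414912-415913) lies within its coding sequence, showed the lowest fold change of the called intron genes, with 519.7, 554 and 557 CPM in the h-yU1C libraries, against 1539, 1269 and 1633 CPM in the WT libraries. DBP2 had a log2 fold change of −1.45 ± 0.11 (adjusted p = 0.000333). EFM5, a lysine methyltransferase of translation elongation factor with a GTAAGT and a GTATGT intron, had 67.8, 67.0 and 65.2 CPM in h-yU1C against 101, 93.4 and 89.8 CPM in WT. The fitted log2 fold change of EFM5 was −0.51 ± 0.06 (adjusted p = 0.00204). YDL012C, a small gene with a GTACGT site, had 17.04, 17.8 and 21.04 CPM in h-yU1C against 37.0, 34.6 and 28.6 CPM in WT. For YDL012C the log2 fold change was −0.84 ± 0.13 (adjusted p = 0.00398). These lower genes thus include GTATGT and GTACGT sites, while the GTAAGT site of EFM5 stands in a gene that also has a GTATGT intron. ACT1 (actin), with a GTATGT site, had 2009.8, 2135 and 1779.5 CPM in h-yU1C against 1939, 2188 and 1981 CPM in WT, overlapping (log2 fold change −0.04 ± 0.10, adjusted p = 0.767). SUS1, which has 2 introns and works in mRNA export, was measured at 4.99, 6.39 and 8.96 CPM in h-yU1C against 11.3, 10.8 and 7.42 CPM in WT, also overlapping (log2 fold change −0.53 ± 0.26, adjusted p = 0.169). HAC1, whose intron is removed by Ire1 and tRNA ligase rather than by the spliceosome, had 277, 283 and 234 CPM in h-yU1C against 245, 248 and 256 CPM in WT. HAC1 had a log2 fold change of 0.08 ± 0.09 (adjusted p = 0.4996).

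Among the 8 intron genes called higher, QCR9 and QCR10 encode small subunits of the respiratory cytochrome bc1 complex. QCR9 had 23.9, 24.8 and 12.2 CPM in the h-yU1C libraries, against 8.17, 9.31 and 8.12 CPM in the WT libraries (log2 fold change 1.25 ± 0.27, adjusted p = 0.0135), with h-yU1C replicate 3 the lowest of its group, and lost its call without h-yU1C replicate 1, h-yU1C replicate 2 or WT replicate 1 (adjusted p = 0.0539, 0.0593 and 0.0556). QCR10 had 11.1, 11.3 and 9.42 CPM in the h-yU1C libraries, against 5.12, 5.90 and 3.36 CPM in the WT libraries. The fitted log2 fold change of QCR10 was 1.15 ± 0.23 (adjusted p = 0.0111). RRT8, a lipid droplet protein of the spore wall pathway, had 33.0, 33.5 and 27.8 CPM in h-yU1C against 18.1, 22.3 and 17.3 CPM in WT. For RRT8 the log2 fold change was 0.71 ± 0.13 (adjusted p = 0.00736). REC114, a meiotic recombination protein, had 21.3, 19.2 and 20.7 CPM in h-yU1C against 12.4, 11.4 and 11.4 CPM in WT. REC114 had a log2 fold change of 0.80 ± 0.11 (adjusted p = 0.00227). All 4 separated the groups, as did 46.0% of all tested genes.

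**Figure D2:**
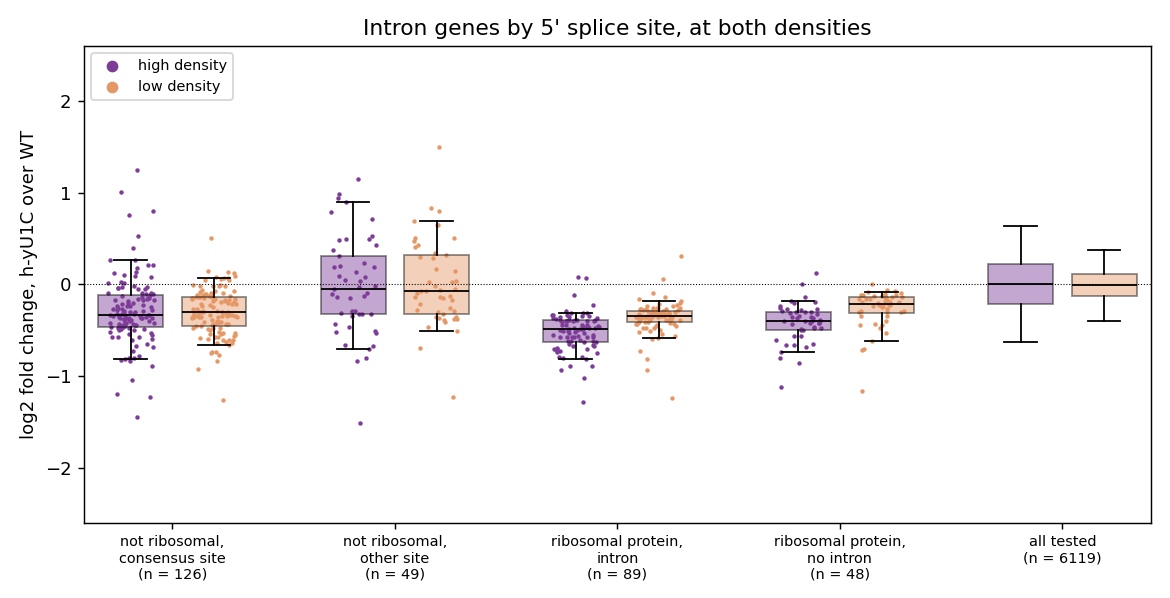
Log2 fold change (h-yU1C over WT) of intron genes by the class of their first 5′ splice site and of ribosomal protein genes, at high density (own fit of 6 libraries) and at low density (fit of 4 groups), with boxes at the quartiles and whiskers at the 5th and 95th percentiles. Points are genes, drawn for all classes but the last, and 2 lie outside the range of 2.6. At high density the medians were −0.33 for the consensus site, −0.05 for other sites, −0.49 for ribosomal protein genes that have an intron and −0.40 for those that lack one.

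Cytosolic ribosomal protein genes were lower in h-yU1C whether or not they had an intron. Of 89 with an intron 70 were lower and none was higher, with a median of −0.49. Of 48 without an intron 23 were lower and none was higher, with a median of −0.40. Together they took 11.6, 12.4 and 12.9% of the reads in h-yU1C libraries and 15.5, 16.9 and 14.2% in WT libraries, without overlap (exact permutation test, two-sided, p = 0.1, the smallest that 20 splits allow). Within the intron-bearing genes, 66 with GTATGT had 55 lower and a median of −0.51, and 14 with GTACGT had 9 lower and a median of −0.40. On the TPM scale 21 genes with and 9 without an intron were lower, and their medians lay 0.35 and 0.31 below that of all genes. With the length offset the counts were 77 and 38. The counts with an intron fell to 27, 43 and 29, and those without to 6, 10 and 7, with h-yU1C replicate 1, h-yU1C replicate 2 or WT replicate 1 left out. Many of these genes are short, and the share of short sequences differed between libraries as given above.

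RPS22B, a small subunit protein whose untranslated leader holds another intron, had 97.8, 114 and 118 CPM in the h-yU1C libraries, against 228, 241 and 199.7 CPM in the WT libraries (log2 fold change −1.02 ± 0.10, adjusted p = 0.000767), the lowest fold change of the called ribosomal protein genes with GTATGT. RPL14B had 256, 294 and 294 CPM in h-yU1C against 486, 551 and 437 CPM in WT. On the log2 scale RPL14B differed by −0.81 ± 0.11 (adjusted p = 0.00227). RPL13A had 534, 594 and 527 CPM in h-yU1C against 825, 929 and 809 CPM in WT. For RPL13A the log2 fold change was −0.63 ± 0.09 (adjusted p = 0.00308). RPL8A, which has no intron, had 686, 733 and 627 CPM in h-yU1C against 1104, 1073 and 1117 CPM in WT. RPL8A had a log2 fold change of −0.69 ± 0.08 (adjusted p = 0.00170). In all 4 the groups did not overlap, as in 46.0% of all tested genes. RPS14B, whose protein binds its own transcript and holds back its splicing, had 76.1, 87.1 and 82.2 CPM in the h-yU1C libraries, against 99.4, 125 and 91.4 CPM in the WT libraries, below WT in every library but not called (log2 fold change −0.36 ± 0.12, adjusted p = 0.0591). It was called lower without WT replicate 3 (adjusted p = 0.0265), by DESeq2 (0.019), in the fits of 4 and of 7 groups (0.0206 and 0.00456), with a filter at 10 CPM (0.0443), with the replicate block (0.0467) and with the length offset (0.0176), values in brackets being adjusted p. On the TPM scale its fold change was 0.02, below the 0.17 of all genes. RPL30, which also inhibits the splicing of its own transcript, had 421, 534 and 891 CPM in the h-yU1C libraries, against 1143, 1116 and 786 CPM in the WT libraries, where h-yU1C replicate 3 exceeded WT replicate 3 (log2 fold change −0.72 ± 0.28, adjusted p = 0.0927). It was called lower without h-yU1C replicate 3 (adjusted p = 0.0138), and also in the fits of 4 and of 7 groups, with the length offset and on the TPM scale (adjusted p = 0.0248, 0.00929, 0.0195 and 0.0492). RPS9A had 214, 209 and 202 CPM in h-yU1C against 204, 179 and 212 CPM in WT, overlapping (log2 fold change 0.07 ± 0.08, adjusted p = 0.532). Most ribosomal proteins are made from a pair of nearly identical genes, so the authors' division of reads leaves each copy uncertain.

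Of 97 ribosome biogenesis genes, which make and process the ribosomal RNA, 17 were higher and 14 lower, with a median of 0.01. These shares, 17.5% and 14.4%, were near the 16.0% and 12.6% of all genes. The counts of higher and lower genes were 7 and 5, 6 and 8, 8 and 13, and 7 and 5 without h-yU1C replicate 1, h-yU1C replicate 2, h-yU1C replicate 3 and WT replicate 1.

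Genes of amino acid synthesis, which the activator Gcn4 induces when amino acids run short, were lower in h-yU1C. Of 14 genes of arginine synthesis and use tested, 9 were lower and none was higher, with a median of −0.84. Of 57 genes of the other amino acid pathways, GCN4 among them, 44 were lower and 2 higher (ARO10 and TRP1), with a median of −0.60. The amino acid genes took 2.15 ± 0.0358% of reads in h-yU1C and 3.41 ± 0.474% in WT (SD, n = 3 each). ARG1, argininosuccinate synthetase, had 72.8, 92.1 and 76.0 CPM in the h-yU1C libraries, against 453, 267 and 576 CPM in the WT libraries. On the log2 scale ARG1 differed by −2.43 ± 0.27 (adjusted p = 0.00118). WT replicate 2 was the lowest of the WT libraries yet above every h-yU1C library, while the h-yU1C libraries were close together. ARG4 (argininosuccinate lyase) was 4.07-fold higher in WT (adjusted p = 0.000605), ARG7 (ornithine acetyltransferase) 4.16-fold (adjusted p = 0.000482), and ARG3 (ornithine carbamoyltransferase) 3.19-fold (adjusted p = 0.00349). The arginine counts ran from 7 to 9 lower and the others from 34 to 46 lower with any 1 library left out, and on the TPM scale they were 7 and 30. Without both of the deepest libraries the second count was 20.

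Outside arginine, HIS3 (imidazoleglycerol-phosphate dehydratase) had 46.0, 44.4 and 46.9 CPM in the h-yU1C libraries, against 124, 97.1 and 121 CPM in the WT libraries. For HIS3 the log2 fold change was −1.32 ± 0.10 (adjusted p = 0.000333). LYS20, a homocitrate synthase, had 145, 145 and 125 CPM in h-yU1C against 304, 276 and 348 CPM in WT. LYS20 had a log2 fold change of −1.16 ± 0.11 (adjusted p = 0.000610). HIS1, the first enzyme of histidine synthesis, and ILV6, the regulatory subunit of acetolactate synthase, had log2 fold changes of −1.02 (adjusted p = 0.000482) and −0.91 (adjusted p = 0.000378). None of these 4 overlapped between groups, as in 46.0% of all tested genes. PCL5, the cyclin with which Pho85 marks Gcn4 for degradation, had 98.1, 111 and 102 CPM in the h-yU1C libraries, against 345, 337 and 362 CPM in the WT libraries. On the log2 scale PCL5 differed by −1.75 ± 0.07 (adjusted p = 9.23e-05). GCN4 itself, named after its values were seen, had 1109.8, 1169 and 1073 CPM in the h-yU1C libraries, against 1255, 1356 and 1194 CPM in the WT libraries, below WT in every library but not called (log2 fold change −0.18 ± 0.08, adjusted p = 0.139). ORT1, the mitochondrial ornithine carrier, and CAR1, the arginase that breaks arginine down, were also lower, with log2 fold changes of −1.28 (adjusted p = 0.000138) and −1.38 (adjusted p = 0.000111). ARO10, a phenylpyruvate decarboxylase of amino acid breakdown, had 297, 258 and 247 CPM in h-yU1C against 201, 120.3 and 177 CPM in WT. For ARO10 the log2 fold change was 0.69 ± 0.18 (adjusted p = 0.0277). TRP1, an enzyme of tryptophan synthesis and a common marker, had 82.2, 94.5 and 76.2 CPM in h-yU1C against 61.7, 67.6 and 62.5 CPM in WT. TRP1 had a log2 fold change of 0.40 ± 0.09 (adjusted p = 0.0175). Both calls were lost without h-yU1C replicate 1 (adjusted p = 0.108 and 0.0609) and without h-yU1C replicate 2 (adjusted p = 0.0904 and 0.0656), and that of TRP1 also without WT replicate 1 (adjusted p = 0.0777).

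Further genes were among the 12 lowest. ARO5 had 13.4, 16.0 and 16.4 CPM in h-yU1C against 68.0, 56.5 and 72.0 CPM in WT. On the log2 scale ARO5 differed by −2.10 ± 0.12 (adjusted p = 0.000143). The alcohol dehydrogenase ADH5 had 40.5, 45.1 and 46.3 CPM in h-yU1C against 140.1, 122 and 149.9 CPM in WT. For ADH5 the log2 fold change was −1.64 ± 0.10 (adjusted p = 0.000146). GGC1, the mitochondrial guanine nucleotide carrier, had 80.8, 95.3 and 79.0 CPM in h-yU1C against 255, 222 and 303 CPM in WT. GGC1 had a log2 fold change of −1.61 ± 0.13 (adjusted p = 0.000416). The naming rule took them only where the groups did not overlap. RGI1, a gene of energy metabolism, had 14.4, 13.4 and 16.6 CPM in h-yU1C against 32.4, 82.2 and 22.0 CPM in WT (log2 fold change −1.62 ± 0.45, adjusted p = 0.0335), and its call was lost without h-yU1C replicate 1, 2 or 3 (adjusted p = 0.0938, 0.107 and 0.0658) or WT replicate 1 (adjusted p = 0.0515).

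The Gcn4 site was looked for as TGACTC on either strand, from 500 to 50 bases before the start codon. It stood in 680 of 5667 such windows, in 22.5% of those of the lower genes and in 8.71% of those of the higher genes. In the arginine list it stood in 9 of the 9 lower genes and 3 of the 5 not called, and in the other amino acid list in 34 of 44 lower genes, 1 of 11 not called and neither of the 2 higher. The windows below are from genes with the lowest fold changes, on the coding strand of the R64 build, with the motif or its reverse complement in capitals. 
ARG1 (chrXV:218928-218951, + strand): cgtatggaaGAGTCAtttaaaggc
ARG4 (chrVIII:141567-141590, − strand): gtagatgaaTGACTCactttttgg
ARG7 (chrXIII:396517-396540, − strand): caggtaggaTGACTCactgcgtaa
ARO5 (chrVII:288249-288272, + strand): atatataatGAGTCAtttgtttct
HIS3 (chrXV:721815-721838, + strand): cctagcggaTGACTCttttttttt
A match describes the letters only, since binding was not measured. PCL5 held none in its window.

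Genes of other nitrogen and nucleotide pathways moved less uniformly. Of 33 purine, pyrimidine and one-carbon genes 19 were lower and 2 higher, with a median of −0.41, and the lower count fell to 11, 8 and 8 without h-yU1C replicate 1, h-yU1C replicate 2 and WT replicate 1. FUR1, which salvages uracil, had 98.6, 102 and 104 CPM in h-yU1C against 181, 188 and 170.0 CPM in WT. FUR1 thus had a log2 fold change of −0.82 ± 0.06 (adjusted p = 0.000333). URA4, dihydroorotase, had 109, 103 and 102 CPM in h-yU1C against 162, 161 and 161 CPM in WT. For URA4 the log2 fold change was −0.62 ± 0.06 (adjusted p = 0.000583). IMD2, an IMP dehydrogenase with near-identical copies, had 70.3, 79.5 and 74.8 CPM in h-yU1C against 151, 123 and 149.6 CPM in WT. IMD2 had a log2 fold change of −0.92 ± 0.09 (adjusted p = 0.000969). FUR4, the uracil permease, went the other way with 75.3, 77.8 and 70.2 CPM in h-yU1C against 43.3, 44.3 and 45.2 CPM in WT. FUR4 thus had a log2 fold change of 0.75 ± 0.06 (adjusted p = 0.000482). Transporters were also among the higher genes of related lists. GNP1, a glutamine permease, had 618, 631 and 552 CPM in h-yU1C against 334, 329 and 368 CPM in WT (log2 fold change 0.80 ± 0.09, adjusted p = 0.00101), MEP2, an ammonium permease, was 1.48-fold higher (adjusted p = 0.00377) and MUP1, a methionine permease, 1.75-fold higher (adjusted p = 0.00218), while the low-affinity permease MUP3 was lower, with a log2 fold change of −0.72 (adjusted p = 0.00149). Of 34 nitrogen catabolite genes 9 were higher and 3 lower (3 higher without h-yU1C replicate 1, h-yU1C replicate 2 or WT replicate 1, and 6 lower without WT replicate 2). Of 30 sulfur genes 5 were higher and 5 lower, 16.7% each, against 16.0% and 12.6% of all genes. The higher count was 2, 2 and 3 without h-yU1C replicate 1, h-yU1C replicate 2 and WT replicate 1. MET17 (homocysteine synthase) was among the lower with 122, 141 and 118 CPM in h-yU1C against 196, 214 and 260.0 CPM in WT. For MET17 the log2 fold change was −0.81 ± 0.12 (adjusted p = 0.00350).

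Phosphate starvation genes, which the activator Pho4 controls, were split. Of 23 tested, 11 were lower and 2 higher, with a median of −0.18, and 7 were lower without h-yU1C replicate 2. PHO5, the main secreted acid phosphatase, had 155, 157 and 155 CPM in the h-yU1C libraries, against 407, 445 and 456 CPM in the WT libraries. PHO5 had a log2 fold change of −1.48 ± 0.07 (adjusted p = 0.000111). PHO12 and PHO11 are nearly identical acid phosphatases whose reads cannot be fully told apart. PHO12 had 92.7, 74.5 and 82.5 CPM in h-yU1C against 255, 377 and 321 CPM in WT (log2 fold change −1.93 ± 0.15, adjusted p = 0.000393), and PHO11 had 20.5, 18.9 and 22.0 CPM in h-yU1C against 50.9, 89.8 and 57.2 CPM in WT (log2 fold change −1.69 ± 0.21, adjusted p = 0.00185). PHO8, the vacuolar alkaline phosphatase, was 1.67-fold higher in WT (adjusted p = 0.00126). None of these 4 overlapped between groups, as in 46.0% of all tested genes. PHO84, the high-affinity phosphate transporter and the best known target of Pho4, had 2743, 2719 and 2359.8 CPM in h-yU1C against 2444, 2327 and 2719 CPM in WT and was not called (log2 fold change 0.06 ± 0.10, adjusted p = 0.674, named after its values were seen). PHM7, of unknown function, was higher, with 13.4, 12.2 and 11.7 CPM in h-yU1C against 6.62, 7.02 and 6.62 CPM in WT. PHM7 thus had a log2 fold change of 0.88 ± 0.13 (adjusted p = 0.00389). The Pho4 site CACGTG, its own reverse complement, stood in 6.03% of all windows, in 9 of the 11 lower genes and in 7 of the 10 not called, and those of the acid phosphatases are printed for comparison, motif in capitals. 
PHO5 (chrII:431190-431213, − strand): tggcactcaCACGTGggactagca
PHO11 (chrI:225168-225191, + strand): tggcgttcaCACGTGggtttaaaa
PHO12 (chrVIII:551807-551830, + strand): tggcgttcaCACGTGggtttaaaa
The windows of PHO11 and PHO12 are letter for letter the same.

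**Figure D3:**
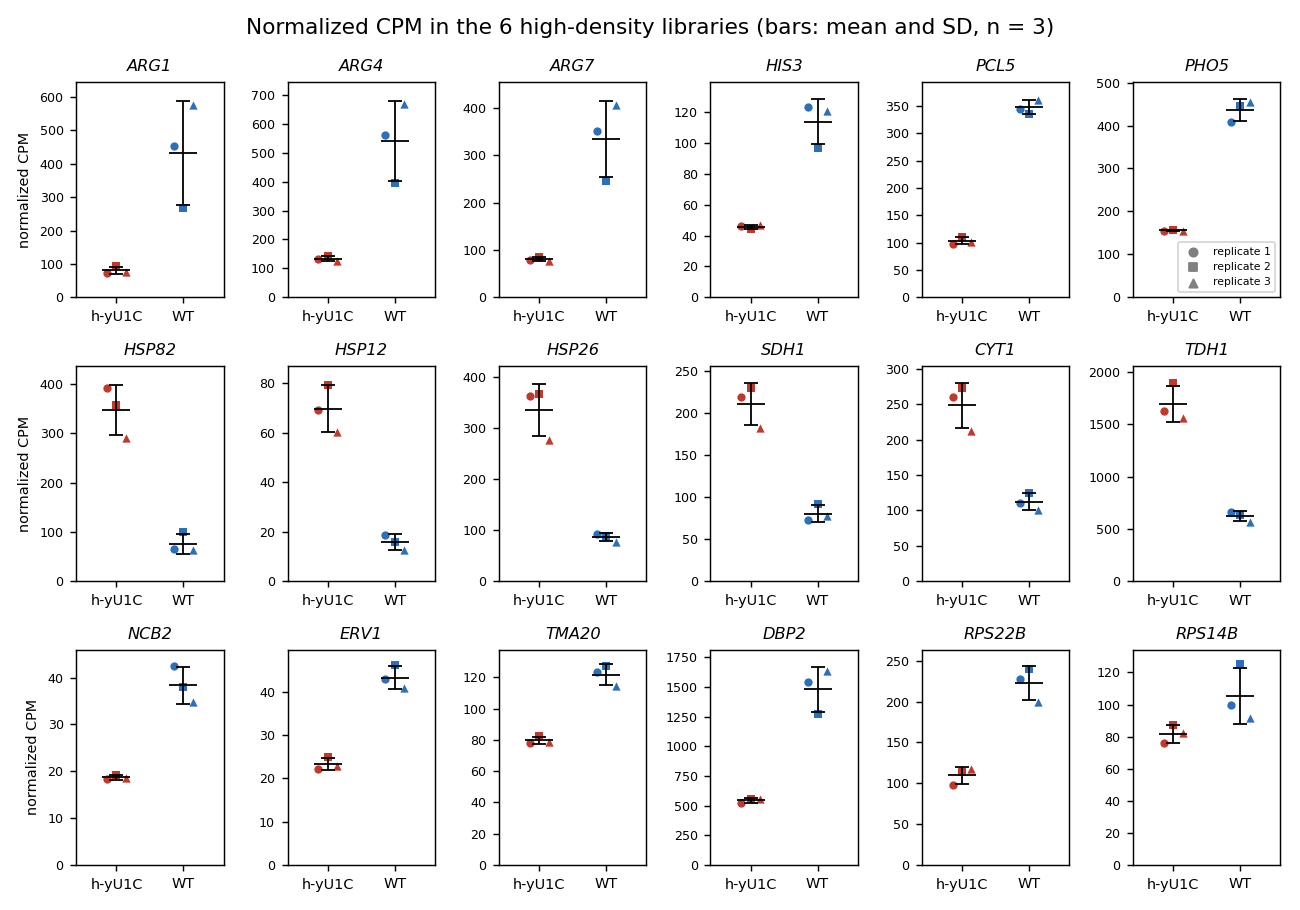
TMM-normalized CPM of 18 genes in each high-density library, with h-yU1C left of WT, 1 symbol per replicate, and the mean and SD (n = 3). Amino acid and phosphate genes (top row) and intron genes (bottom row) are lower in h-yU1C, chaperone, stress, respiratory and TDH1 panels (middle row) are higher, and RPS14B is the 1 gene shown that was not called.

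Stress and chaperone genes were higher in h-yU1C. Of 43 targets of the general stress activators Msn2 and Msn4, 26 were higher and 1 lower (HSP30), with a median of 0.81. Of 26 genes of the heat shock factor Hsf1, 16 were higher and none lower, with a median of 0.48, and HSP104, HSP26, HSP42 and SSA4 stand in both lists. The stress list took 0.509 ± 0.0578% of reads in h-yU1C and 0.240 ± 0.0467% in WT, and the Hsf1 list 1.85 ± 0.100% and 1.37 ± 0.0454% (SD, n = 3 each), each without overlap. HSP82, the inducible Hsp90, had 393, 357 and 292 CPM in the h-yU1C libraries, against 65.4, 99.3 and 63.3 CPM in the WT libraries. For HSP82 the log2 fold change was 2.19 ± 0.20 (adjusted p = 0.000605). HSP26, a small heat shock protein, had 361, 366 and 275.1 CPM in the h-yU1C libraries, against 91.9, 88.5 and 76.6 CPM in the WT libraries. HSP26 had a log2 fold change of 1.96 ± 0.13 (adjusted p = 0.000251). HSP12, a membrane protein of stress and stationary phase, had 69.3, 79.4 and 60.4 CPM in the h-yU1C libraries, against 18.8, 16.0 and 12.6 CPM in the WT libraries. HSP12 thus had a log2 fold change of 2.13 ± 0.16 (adjusted p = 0.000333). In all 3 the lowest h-yU1C library, replicate 3, held more than 2-fold the highest WT library. SSA4, an inducible Hsp70, had 254, 244 and 219 CPM in h-yU1C against 90.5, 91.9 and 91.7 CPM in WT (log2 fold change 1.39 ± 0.07, adjusted p = 0.000134), and HSP78, a mitochondrial disaggregase, 136, 127 and 111 CPM in h-yU1C against 46.9, 55.5 and 41.2 CPM in WT. For HSP78 the log2 fold change was 1.38 ± 0.12 (adjusted p = 0.000605). YGP1, a secreted glycoprotein of nutrient limitation, was 2.86-fold higher (adjusted p = 0.00204) and GAD1, glutamate decarboxylase, 3.10-fold (adjusted p = 0.00220). HSP30, a negative regulator of the plasma membrane proton pump, was opposite, with 20.2, 19.5 and 18.0 CPM in h-yU1C against 47.6, 69.7 and 40.4 CPM in WT. HSP30 had a log2 fold change of −1.45 ± 0.19 (adjusted p = 0.00237). The stress count fell to 16 without h-yU1C replicate 2 and to 14 without WT replicate 1, and the Hsf1 count to 10, 10 and 8 without h-yU1C replicate 1, h-yU1C replicate 2 and WT replicate 1. Over all genes the higher calls fell from 978 to 468, 429 and 466 without the same libraries.

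The stress element was searched as AGGGG on either strand and stood in 32.0% of all windows, in 24 of the 26 higher stress genes and in 14 of the 16 not called. The heat shock element, GAANNTTC, stood in 18.2% of all windows, in 9 of the 16 higher Hsf1 genes and in 6 of the 10 not called. HSP82, SSA4 and HSP26 held none of that form. The windows of 3 higher genes with several stress elements show 1 element each, with it or its reverse complement in capitals. 
HSP12 (chrVI:107057-107079, + strand): ccggtcgtcCCCCTcttgatctg
HSP26 (chrII:381695-381717, + strand): tattccctcCCCCTtatgcgtcc
TSL1 (chrXIII:70450-70472, + strand): gtagaaccaAGGGGctagcacac

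Reserve carbohydrate genes were also higher. Of 20 glycogen and trehalose genes 10 were higher and none lower (median 0.39), and the count was 4 without h-yU1C replicate 1, h-yU1C replicate 2 or WT replicate 1. TSL1, a subunit of trehalose synthase, had 236, 211 and 154 CPM in h-yU1C against 56.4, 106 and 57.3 CPM in WT. TSL1 thus had a log2 fold change of 1.45 ± 0.27 (adjusted p = 0.00869). NTH1, the neutral trehalase, had 238, 235 and 208 CPM in h-yU1C against 119, 123 and 119.9 CPM in WT (log2 fold change 0.91 ± 0.07, adjusted p = 0.000376), and GDB1, the glycogen debranching enzyme, was 1.88-fold higher (adjusted p = 0.00100), so enzymes of making and of breaking these sugars were both higher. Of 27 autophagy and vacuole genes 12 were higher and none lower (6 without WT replicate 1), among them ATG2 and AMS1. ATG2, which feeds lipid into the growing autophagosome, had 66.2, 62.7 and 65.3 CPM in h-yU1C against 40.1, 42.7 and 41.8 CPM in WT. For ATG2 the log2 fold change was 0.64 ± 0.06 (adjusted p = 0.000649). The vacuolar mannosidase AMS1 had 61.3, 57.8 and 56.3 CPM in h-yU1C against 28.7, 30.3 and 31.4 CPM in WT. AMS1 had a log2 fold change of 0.96 ± 0.07 (adjusted p = 0.000333).

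Genes of respiration were higher in h-yU1C. Of 24 nuclear subunits of complexes II to IV, 18 were higher and none was lower, with a median log2 fold change of 0.76, and 11 were called without h-yU1C replicate 2. Their share of the reads was 0.254, 0.269 and 0.246% in h-yU1C libraries and 0.142, 0.152 and 0.121% in WT libraries, without overlap. Of 17 ATP synthase genes 9 were higher and none lower (median 0.45), falling to 5, 3 and 4 without h-yU1C replicate 1, h-yU1C replicate 2 and WT replicate 1, and of 17 genes of the tricarboxylic acid cycle 11 were higher and 2 lower (median 0.47), of which SDH1, SDH2, SDH3 and SDH4 stand in the first list too. SDH1, the flavoprotein of succinate dehydrogenase, had 219.7, 229.6 and 182 CPM in the h-yU1C libraries, against 72.6, 91.3 and 77.1 CPM in the WT libraries. SDH1 thus had a log2 fold change of 1.39 ± 0.12 (adjusted p = 0.000482). SDH2, its iron-sulfur subunit, had 131, 144 and 115 CPM in the h-yU1C libraries, against 55.2, 60.3 and 50.4 CPM in the WT libraries. For SDH2 the log2 fold change was 1.23 ± 0.10 (adjusted p = 0.000482). CYT1, cytochrome c1, had 261, 272 and 212 CPM in the h-yU1C libraries, against 111, 125 and 101 CPM in the WT libraries. CYT1 had a log2 fold change of 1.15 ± 0.12 (adjusted p = 0.000975). RIP1, the Rieske protein of the same complex, had 102, 108 and 87.4 CPM in h-yU1C against 49.98, 48.8 and 40.9 CPM in WT. RIP1 thus had a log2 fold change of 1.09 ± 0.11 (adjusted p = 0.000856). In each of these 4 genes the groups did not overlap, as in 46.0% of all tested genes, and h-yU1C replicate 3 was the lowest of its group. ACO1 (aconitase) was 2.03-fold higher (adjusted p = 0.00220), MDH1 (mitochondrial malate dehydrogenase) 1.898-fold (adjusted p = 0.00196), NDI1 (internal NADH dehydrogenase) 1.93-fold (adjusted p = 0.000856), CYB2 (L-lactate dehydrogenase) 1.70-fold (adjusted p = 0.00101), ATP1 1.53-fold (adjusted p = 0.00578) and ATP4 1.44-fold (adjusted p = 0.00400), the last 2 being subunits of ATP synthase. CIT3, a citrate and methylcitrate synthase and a lower gene of the cycle, had 11.6, 10.5 and 11.6 CPM in h-yU1C against 14.8, 15.7 and 14.6 CPM in WT (log2 fold change −0.42 ± 0.11, adjusted p = 0.0307). Its call was lost without any library but h-yU1C replicate 3 (adjusted p = 0.0794, 0.112, 0.112, 0.0545 and 0.0518).

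The machinery that expresses the mitochondrial genome was higher as well. Of 31 such genes 17 were higher and 1 lower (median 0.27), with 9, 9 and 10 higher without h-yU1C replicate 1, h-yU1C replicate 2 and WT replicate 1. RPO41, the mitochondrial RNA polymerase, had 199, 191 and 195 CPM in the h-yU1C libraries, against 117, 109 and 128 CPM in the WT libraries. For RPO41 the log2 fold change was 0.72 ± 0.07 (adjusted p = 0.000897). NAM2, the mitochondrial leucyl-tRNA synthetase, had 95.6, 91.9 and 88.1 CPM in h-yU1C against 66.3, 63.1 and 65.3 CPM in WT. NAM2 had a log2 fold change of 0.50 ± 0.06 (adjusted p = 0.00162). Of 73 mitochondrial ribosomal proteins 20 were higher and 1 lower (median 0.14). The higher count was 11, 9, 10 and 34 without h-yU1C replicate 1, h-yU1C replicate 2, WT replicate 1 and WT replicate 2, 58 on the TPM scale and 41 with the length offset. Higher calls over all genes moved the same way, from 978 to 468, 429, 466 and 1135 without those libraries. They were 1780 on the TPM scale and 1258 with the length offset. RSM22, a methyltransferase-like protein of the small subunit of the mitochondrial ribosome, had 92.6, 93.5 and 99.8 CPM in h-yU1C against 64.6, 56.7 and 62.8 CPM in WT. RSM22 thus had a log2 fold change of 0.63 ± 0.07 (adjusted p = 0.00129). Of 38 mitochondrial import genes 3 were higher and 2 lower, counts that ran from 0 to 6 and from 1 to 6 with any 1 library left out. HAP1, the heme activator, was lower with 226, 211 and 217 CPM in h-yU1C against 289.7, 276 and 319.8 CPM in WT. For HAP1 the log2 fold change was −0.44 ± 0.08 (adjusted p = 0.00650). ROX1, the hypoxic repressor, was higher with 116, 124 and 115 CPM in h-yU1C against 90.1, 84.3 and 84.4 CPM in WT. ROX1 had a log2 fold change of 0.46 ± 0.06 (adjusted p = 0.00251). HAP4, the limiting subunit of the activator of respiratory genes and named after its values were seen, was not called with 197, 204 and 192 CPM in h-yU1C against 154, 197 and 146 CPM in WT. HAP4 thus had a log2 fold change of 0.25 ± 0.11 (adjusted p = 0.135). Of 15 retrograde response genes 2 were higher and 1 lower (1 to 4 and 1 to 2 with any 1 library left out), and CIT2, their usual reporter, had 44.5, 46.2 and 47.1 CPM in h-yU1C against 51.1, 95.2 and 48.5 CPM in WT. For CIT2 the log2 fold change was −0.50 ± 0.24 (adjusted p = 0.169).

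**Figure D4:**
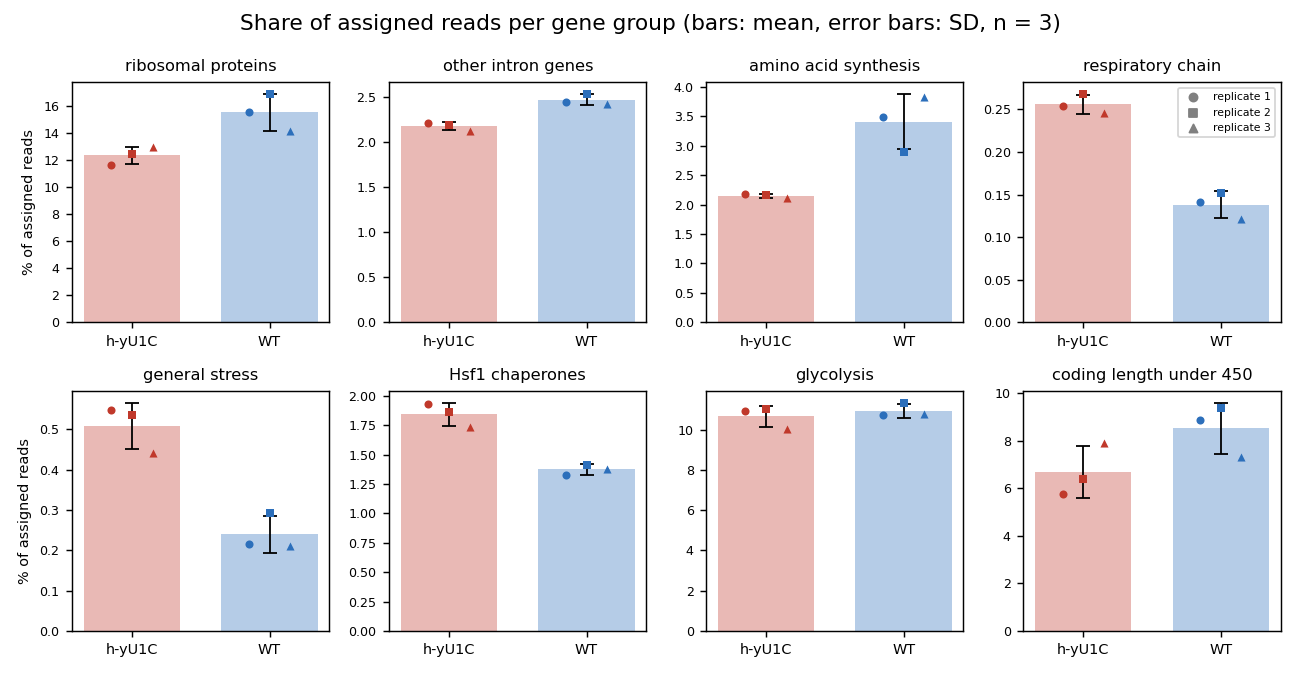
Percent of assigned reads in 8 gene groups for each high-density library, h-yU1C left of WT, with bars at the mean and error bars at the SD (n = 3 each). Ribosomal protein, other intron and amino acid genes are lower in every h-yU1C library than in every WT library, respiratory, stress and Hsf1 genes are higher, and glycolysis (10.7 and 10.9% on average) and sequences under 450 bases overlap.

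Genes of glucose use gave a mixed picture. The 21 glycolytic and fermentative genes took 10.7 ± 0.530% of reads in h-yU1C and 10.9 ± 0.348% in WT (SD, n = 3 each, exact permutation test, two-sided p = 0.6), and 4 were higher and 2 lower (2 and 1 without h-yU1C replicate 1, h-yU1C replicate 2, WT replicate 1 or WT replicate 3). TDH1, the minor glyceraldehyde-3-phosphate dehydrogenase, had 1628, 1892 and 1564 CPM in the h-yU1C libraries, against 657, 635 and 567 CPM in the WT libraries. TDH1 had a log2 fold change of 1.45 ± 0.11 (adjusted p = 0.000333). TDH2, a closely related isozyme that may share reads with it, had 2522, 2671 and 2444 CPM in h-yU1C against 3746, 4182 and 3629.7 CPM in WT (log2 fold change −0.60 ± 0.09, adjusted p = 0.00366), so the 2 isozymes were separated in opposite directions. ALD6, the cytosolic aldehyde dehydrogenase that makes acetate, had 1228, 1170.1 and 1173 CPM in the h-yU1C libraries, against 251, 614 and 263 CPM in the WT libraries (log2 fold change 1.66 ± 0.33, adjusted p = 0.0111), where WT replicate 2 held more than 2-fold the other WT libraries. GPM2, a phosphoglycerate mutase homolog, was 2.81-fold higher (adjusted p = 0.000266). The glucose repressors MIG1 and MIG2 were both higher. MIG1 had 208, 212 and 208 CPM in h-yU1C against 109, 119 and 114 CPM in WT, and MIG2 had 296, 334 and 309 CPM in h-yU1C against 110.5, 132 and 114 CPM in WT. MIG1 thus had a log2 fold change of 0.88 ± 0.06 (adjusted p = 0.000266). For MIG2 the log2 fold change was 1.40 ± 0.09 (adjusted p = 0.000216). HXT7, a high-affinity hexose transporter nearly identical to HXT6, had 1144, 1429 and 1388 CPM in h-yU1C against 446, 848 and 380.3 CPM in WT (log2 fold change 1.24 ± 0.29, adjusted p = 0.0185), and the call was lost without h-yU1C replicate 2 or WT replicate 1 (adjusted p = 0.0621 and 0.0723). Genes known to rise once glucose is gone did not move alike. ADH2, the alcohol dehydrogenase of ethanol use, had 31.9, 36.1 and 30.6 reads per M in h-yU1C and 34.9, 37.6 and 35.5 in WT, which overlapped. JEN1, a lactate permease, had 18.5, 18.7 and 18.0 in h-yU1C and 14.6, 15.7 and 14.6 in WT, and HXT5, a slow-growth hexose transporter, 18.4, 17.7 and 18.7 in h-yU1C and 16.7, 18.7 and 19.1 in WT. At low density ADH2 had 35.5 to 39.9 in h-yU1C and 45.4 to 69.0 in WT. None of these 3 was called. Of 20 genes of the glyoxylate cycle and gluconeogenesis, ICL1 and PCK1 were called higher and none lower. The higher share of 10% was below the 16.0% of all genes. ICL1, isocitrate lyase, had 81.4, 83.0 and 75.2 CPM in h-yU1C against 63.99, 61.5 and 67.1 CPM in WT (log2 fold change 0.32 ± 0.07, adjusted p = 0.0135). PCK1, which makes phosphoenolpyruvate in gluconeogenesis, had 14.7, 16.9 and 14.7 CPM in h-yU1C against 8.94, 9.31 and 10.99 CPM in WT (log2 fold change 0.66 ± 0.14, adjusted p = 0.0121). The call of ICL1 was lost without h-yU1C replicate 1, h-yU1C replicate 2 or WT replicate 1 (adjusted p = 0.0843, 0.0925 and 0.0658), and that of PCK1 without h-yU1C replicate 2 or WT replicate 1 (adjusted p = 0.0640 and 0.0626). CTT1, the cytosolic catalase, had 37.3, 33.9 and 27.8 CPM in h-yU1C against 19.7, 26.3 and 18.3 CPM in WT (log2 fold change 0.62 ± 0.16, adjusted p = 0.0287), and lost its call without h-yU1C replicate 1, h-yU1C replicate 2, WT replicate 1 or WT replicate 3 (adjusted p = 0.0980, 0.0961, 0.106 and 0.0637).

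Smaller gene groups were higher in h-yU1C too. Of 15 genes of pleiotropic drug resistance, membrane pumps and their regulators, 9 were higher and none lower (median 0.51), 7 to 9 with any 1 library left out. PDR5, the main drug efflux pump, had 1329.8, 1312 and 1406 CPM in the h-yU1C libraries, against 871, 830.2 and 848 CPM in the WT libraries. PDR5 had a log2 fold change of 0.67 ± 0.07 (adjusted p = 0.00114). YOR1 had 246, 240.0 and 258 CPM in h-yU1C against 150.3, 149.5 and 168 CPM in WT (log2 fold change 0.67 ± 0.07, adjusted p = 0.00105) and PDR15 109, 105.3 and 108 CPM in h-yU1C against 74.4, 74.8 and 77.6 CPM in WT. PDR15 thus had a log2 fold change of 0.51 ± 0.05 (adjusted p = 0.00102). Of 24 mating genes 11 were higher and 1 lower (7 higher without h-yU1C replicate 1 or h-yU1C replicate 2, and 4 lower without h-yU1C replicate 3). KAR4, a transcription factor of nuclear fusion, had 125, 111 and 124 CPM in h-yU1C against 56.9, 57.1 and 54.1 CPM in WT. For KAR4 the log2 fold change was 1.10 ± 0.07 (adjusted p = 0.000172). FUS1, of cell fusion, had 70.1, 68.5 and 73.9 CPM in h-yU1C against 42.7, 39.2 and 39.8 CPM in WT (log2 fold change 0.80 ± 0.07, adjusted p = 0.000421). FAR1, which arrests the cycle in pheromone, was 1.52-fold higher (adjusted p = 0.00282). PRM7, a pheromone-regulated membrane protein, had 391, 453 and 379.9 CPM in h-yU1C against 106, 97.3 and 124 CPM in WT, 3.73-fold higher (adjusted p = 0.000172). Its neighbour on chromosome IV, BSC1, had 92.2, 87.2 and 84.5 CPM in h-yU1C against 20.5, 8.32 and 32.9 CPM in WT, with a wide spread over the WT libraries. BSC1 had a log2 fold change of 2.10 ± 0.41 (adjusted p = 0.00960).

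Of 34 cell cycle genes 13 were higher and 1 lower, falling to 4, 3 and 4 without h-yU1C replicate 1, h-yU1C replicate 2 and WT replicate 1. The G1 cyclin CLN3 had 159, 166 and 142 CPM in h-yU1C against 99.7, 122 and 114 CPM in WT (log2 fold change 0.48 ± 0.09, adjusted p = 0.0102). The Pho85 cyclin PCL2 had 78.8, 74.3 and 73.5 CPM in h-yU1C against 52.6, 49.3 and 49.6 CPM in WT. PCL2 thus had a log2 fold change of 0.58 ± 0.06 (adjusted p = 0.00101). In the DNA repair list 5 of 17 were higher and 1 lower (3 higher without h-yU1C replicate 1 or h-yU1C replicate 2). RAD16, of nucleotide excision repair, had 169, 170.5 and 174 CPM in h-yU1C against 65.3, 60.4 and 68.6 CPM in WT. For RAD16 the log2 fold change was 1.40 ± 0.07 (adjusted p = 0.000111). RAD2, a nuclease of the same pathway, had 137, 135 and 142 CPM in h-yU1C against 69.0, 65.4 and 74.8 CPM in WT. RAD2 had a log2 fold change of 0.99 ± 0.07 (adjusted p = 0.000266). The chaperone KAR2 (1.55-fold, adjusted p = 0.00277) and the oxidase ERO1 (1.69-fold, adjusted p = 0.000421) of the endoplasmic reticulum and the glucan synthase GSC2 (1.95-fold, adjusted p = 0.00225) were also higher. RRT5, of unknown function, had 50.005, 55.9 and 47.2 CPM in the h-yU1C libraries, against 9.92, 10.3 and 10.6 CPM in the WT libraries. RRT5 thus had a log2 fold change of 2.31 ± 0.09 (adjusted p = 9.23e-05). FRE7, a ferric reductase homolog of copper shortage, had 73.9, 51.8 and 52.4 CPM in h-yU1C against 18.9, 22.9 and 21.7 CPM in WT. For FRE7 the log2 fold change was 1.49 ± 0.16 (adjusted p = 0.000977). The sporulation genes SPO19 and SPO21 were higher at low levels. SPO19 had 9.18, 9.34 and 10.7 CPM in h-yU1C against 1.41, 1.95 and 1.16 CPM in WT (log2 fold change 2.69 ± 0.24, adjusted p = 0.000585). SPO21 was 2.11-fold higher (adjusted p = 0.00108).

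The low-density pair compares the strains at the same density. In a fit of all 4 groups, 17 genes (0.276%) were higher and 49 (0.797%) lower in h-yU1C at low density. Of those 49, 37 were also lower at high density (75.5% of the low-density and 4.78% of the high-density calls). Of all tested genes 12.6% were lower at high density. An intron was present in 36 of the 49 and in 31 of the 37, so the shared genes largely kept the make-up of the 49. At high density 4 of the 49 were called higher. Of the 17, 7 were also higher at high density (41.2% and 0.716%), where 16.0% of all tested genes were higher, and 1 was called lower there. Across genes, log2 fold changes at the 2 densities had a Pearson r of 0.37 for 175 intron genes outside the ribosome, 0.51 for 89 intron-bearing ribosomal protein genes and 0.15 for 5855 genes without one. These are descriptions over genes, which share libraries and are not independent replicates. The low-density medians were −0.31 for GTATGT genes outside the ribosome, −0.08 for those with another site, −0.35 for intron-bearing ribosomal protein genes and −0.21 for intronless ones.

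The difference between the 2 strain effects was tested as an interaction, high minus low density. It was called higher for 605 (9.84%) and lower for 493 (8.02%) of 6150 genes. Of 176 intron genes outside the ribosome tested in this fit 7 were called higher and 11 lower, of 89 ribosomal protein genes with an intron 1 and 2, and of 48 without 1 and 1. The amino acid lists had 7 of 14 arginine and 40 of 57 other genes called lower, the respiratory list 12 of 24 called higher, the Hsf1 list 15 of 26, the stress list 16 of 43 with 1 lower, the mitochondrial ribosome 19 of 73 and the phosphate list 10 of 23 lower. A missed call in this test does not show that the effect was equal at both densities.

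Values at all 4 conditions, normalized over the 12 libraries of that fit, show these patterns gene by gene. NCB2 had 17.01, 18.0 and 17.2 CPM in h-yU1C against 39.7, 35.3 and 32.3 CPM in WT at high density and 22.5, 22.9 and 21.9 CPM in h-yU1C against 40.9, 42.3 and 37.2 CPM in WT at low density, so it was lower in h-yU1C at both (interaction −0.21 ± 0.11, adjusted p = 0.253). RPS22B had 90.9, 106 and 109 CPM in h-yU1C against 213, 224 and 186 CPM in WT at high and 114, 106 and 103 CPM in h-yU1C against 245, 282 and 234 CPM in WT at low density (interaction 0.21 ± 0.13, adjusted p = 0.312). RPS14B had 70.8, 81.4 and 76.2 CPM in h-yU1C against 93.0, 117 and 84.98 CPM in WT at high and 102, 92.0 and 101 CPM in h-yU1C against 181, 209 and 173 CPM in WT at low density, a wider gap at low density (interaction 0.57 ± 0.16, adjusted p = 0.0260). That difference lost its call without h-yU1C replicate 2 at high density, WT replicate 1 at high density or h-yU1C replicate 2 at low density (adjusted p = 0.0696, 0.0612 and 0.0710). DBP2 had 483, 518 and 516 CPM in h-yU1C against 1439, 1182 and 1518 CPM in WT at high and 1259, 1318 and 1247 CPM in h-yU1C against 1710.5, 1607 and 1574 CPM in WT at low density, a wider gap at high density (interaction −1.09 ± 0.12, adjusted p = 0.000166). ARG4 gave 122, 133 and 117 CPM in h-yU1C against 526, 368 and 623 CPM in WT at high and 57.1, 60.2 and 59.9 CPM in h-yU1C against 58.3, 56.7 and 63.9 CPM in WT at low density. At low density the strains overlapped, and the 3 high-density WT libraries were the high ones (interaction −2.01 ± 0.21, adjusted p = 9.52e-05). HIS3 gave 42.8, 41.5 and 43.4 CPM in h-yU1C against 116, 90.4 and 113 CPM in WT at high and 46.6, 39.5 and 39.2 CPM in h-yU1C against 44.6, 51.0 and 41.3 CPM in WT at low density, with 9 libraries between 39.2 and 51.0 CPM and the 3 high-density WT libraries above them. HSP82 had 365, 334 and 270.1 CPM in h-yU1C against 61.2, 92.4 and 58.9 CPM in WT at high and 302, 323 and 319 CPM in h-yU1C against 325, 284 and 286 CPM in WT at low density, so the 3 high-density WT libraries were the low ones (interaction 2.11 ± 0.22, adjusted p = 0.000109). HSP26 differed from it, with 336, 342 and 255 CPM in h-yU1C against 85.9, 82.4 and 71.2 CPM in WT at high and 21.4, 23.4 and 19.5 CPM in h-yU1C against 23.6, 22.3 and 14.6 CPM in WT at low density, higher at high density in both strains (interaction 1.87 ± 0.23, adjusted p = 0.000287). SDH1 had 204, 215 and 169 CPM in h-yU1C against 67.9, 84.98 and 71.7 CPM in WT at high and 53.7, 57.7 and 54.2 CPM in h-yU1C against 46.5, 39.2 and 49.9 CPM in WT at low density (interaction 1.10 ± 0.16, adjusted p = 0.000682). PHO5 had 144, 147 and 144 CPM in h-yU1C against 381, 414 and 424 CPM in WT at high and 201, 182 and 207 CPM in h-yU1C against 174, 238 and 231 CPM in WT at low density (interaction −1.36 ± 0.14, adjusted p = 0.000113). RRT5 had 46.5, 52.2 and 43.7 CPM in h-yU1C against 9.28, 9.59 and 9.87 CPM in WT at high and 5.92, 5.83 and 4.91 CPM in h-yU1C against 8.48, 12.2 and 7.81 CPM in WT at low density, above WT at high density and below it at low density (low-density log2 fold change −0.77, adjusted p = 0.0352).

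**Figure D5:**
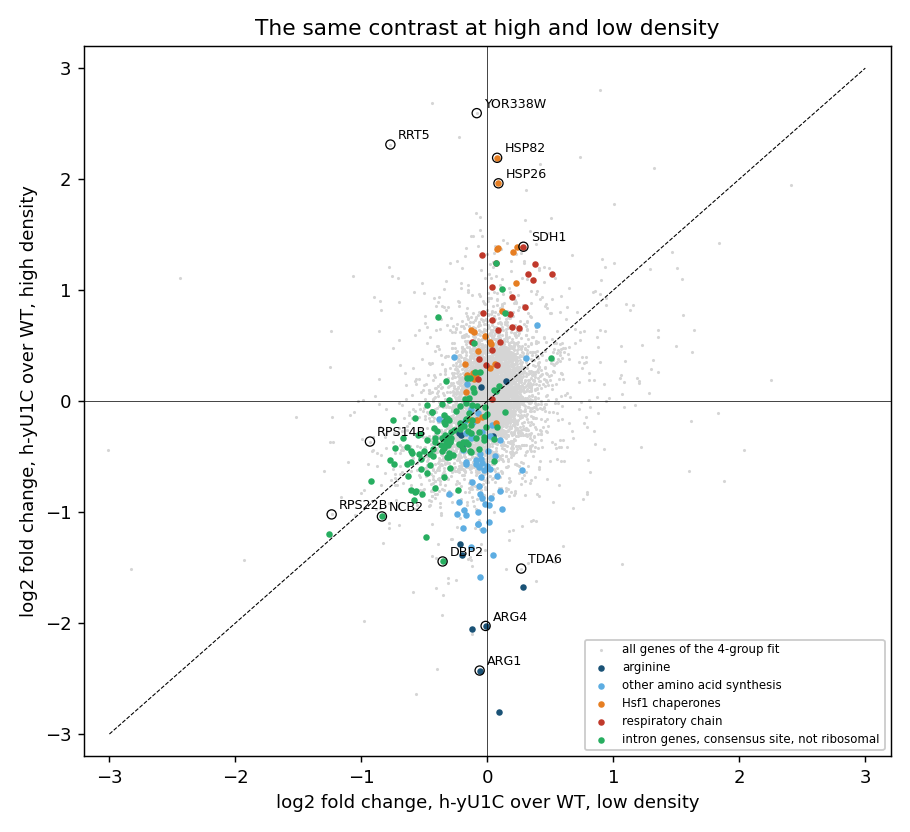
Log2 fold change, h-yU1C over WT, at low density (x axis, fit of 4 groups) and at high density (y axis, own fit) of the 6119 genes tested in both fits, with 5 gene lists in colour, 12 genes ringed and the line of equal effect dashed. Green intron genes lie toward the lower left, with low- and high-density medians of −0.31 and −0.33, while arginine, amino acid, Hsf1 and respiratory genes spread along the vertical axis, and 2 genes of very low counts fall outside the range of 3.2.

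By density within a strain, HSP82 was lower at high than at low density in WT (−2.07, adjusted p = 1.07e-06) and about level in h-yU1C (0.04, adjusted p = 0.855), where the log2 difference is given with its adjusted p. ARG4 was higher at high density in both, by 1.07, adjusted p = 6.46e-05 in h-yU1C and 3.08, adjusted p = 2.95e-08 in WT. SDH1 was likewise higher at high density in both, by 1.83, adjusted p = 1.26e-07 in h-yU1C and 0.73, adjusted p = 0.000288 in WT. The median change with density over the amino acid list was −0.19 in h-yU1C and 0.24 in WT, that of the respiratory chain 1.03 in h-yU1C and 0.45 in WT, and that of the Hsf1 list −0.29 in h-yU1C and −0.78 in WT. High density was an OD600 of about 8 in h-yU1C and 5 in WT, so these changes do not span the same densities. Whether the density, the medium or the strain accounts for the high-density differences was not tested. In bulk RNA, a change in the share of cells in a state and a change per cell cannot be told apart.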

How the data were processed

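Poly-A selected RNA from 3 h-yU1C and 3 WT libraries at high density, and from the 6 low-density libraries used beside them, was quantified by the authors with Salmon 1.9 after trimming with cutadapt, on sacCer3, per the submitters' processing notes. The annotation release, read layout, strand and bias options are not stated in the labels, so reads of a gene and of one that overlaps it on the other strand cannot be told apart. Per the file headers, the authors' tool made an estimated count of reads for each of 6571 coding sequences in every library, without normalization. It also gave TPM, which the authors' deposited tables hold after division by an effective length estimated in each library. The effective lengths, in bases, come from the authors' deposited tables and served only to compare fragment lengths.

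Estimated counts were rounded to whole numbers and tested with edgeR 4.0.16 (quasi-likelihood, TMM, default low-count filter, Benjamini-Hochberg over all tested genes, adjusted p below 0.05) in R 4.3.3, in a fit of the 6 high-density libraries and, for the low-density effect and the interaction, of the 12 libraries of 4 groups. CPM are these counts per M after TMM normalization, and reads per M are per M assigned reads. Counting error is small at 29.1 to 46.8 M reads a library, and the spread between replicates sets the precision. Alternatives were DESeq2 1.42.0, its size factors, TMM without ribosomal protein genes, other low-count filters, limma 3.58.1 on log2(TPM + 1), fits with more groups, a replicate block, a spline offset for GC content and coding length, and each library left out. Leaving out the 2 deepest libraries together was chosen after seeing the data. On simulated counts for the 6119 genes of the high-density comparison, the test recovered 96% of 100 genes changed by 4-fold and 89% of 100 changed by 2-fold, with 6.09% false calls. For the interaction over 6150 genes the shares were 93% and 83%, with 2.76% false calls. The simulated counts were independent between genes, with few genes changed and no difference in fragment length. These rates thus need not hold for the real libraries, where 28.6% of genes were called at high density.

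Introns, splice sites and promoter windows were read from the RefSeq R64 annotation and genome, to which 5906 of the 6571 sequences matched by name. The comparison, the 48 hand-written gene lists and the naming rule were chosen with earlier results of these data known. The rule takes YHC1, LUC7 and 14 fixed genes, the 12 highest and 12 lowest fold changes among called genes averaging at least 10 CPM whose groups do not overlap, up to 4 called members of lowest p and up to 3 of the rarer direction for each list, and for the interaction the 8 of lowest p in each direction. Part of the genes meeting it are left out of the text.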

Additional observations from a re-analysis of the deposited data

Results flagged for a closer look

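For the genes here the h-yU1C effect differed between high and low density, by edgeR's quasi-likelihood test of the interaction (adjusted p below 0.05 over 6150 genes, 3 libraries a group). The numbers are the log2 effect at high density minus that at low density. High density meant an OD600 of about 8 in h-yU1C and about 5 in WT, and whether the density gap, the medium or the strain accounts for the difference was not tested.

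Amino acid genes and others were lower at high density than at low density relative to WT. The differences were −2.37 for ARG1, −2.01 for ARG4, −1.96 for ARG3, −1.94 for ARG7, −1.98 for ARO5, −1.39 for PCL5 and −1.19 for CAR1. ADH5 gave −1.33, GGC1 −1.37, TDA6 −1.78, RGI1 −2.01 and PKP2, a mitochondrial protein kinase of pyruvate dehydrogenase, −1.35. The acid phosphatases PHO12 and PHO11 gave −1.58 and −1.28, YLR297W gave −1.66, the cell wall cross-linking enzyme UTR2 gave −1.04 and the helicase DBP2 gave −1.09.

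Stress genes were higher at high density relative to WT. HSP82 differed by 2.11, HSP26 by 1.87, HSP12 by 1.72, GAD1 by 1.33 and YGP1 by 1.03. Genes of carbon use moved the same way, with 1.72 for ALD6, 1.53 for GPM2 and 1.33 for MIG2. Among the rest, RRT5 gave 3.08, YOR338W 2.68, FRE7 1.62, PRM7 1.59, YGR079W 1.54, the excision repair gene RAD16 1.47, YHL012W 1.35, GAG1 1.27 and the acyltransferase ICT1 1.26. RPS14B gave 0.57, since its h-yU1C libraries were further below WT at low density.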

How the results depend on the processing

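No gene that the text gives as called changed the sign of its fold change under these alternatives. The balance of all calls did turn, with 978 higher and 774 lower genes against 1258 and 1483 with the offset for GC content and coding length and 1037 and 1041 by DESeq2. For high density, limma on log2(TPM + 1) gave 1780 higher and 283 lower genes, the fit of 7 groups 1395 and 1308, the fit of 4 groups 1243 and 1095, and the other normalizations and filters 896 to 953 and 763 to 825. Leaving out 1 library gave 429 to 1135 higher and 338 to 851 lower, and leaving out the 2 deepest together 238 and 190. Without those 2, the calls of EFM5, QCR10, ARG3, ALD6, BSC1, TDH2 and HAP1 were also lost. Of the genes called higher and lower, 972 and 276 were called the same way on the TPM scale. For the interaction, limma gave 551 higher and 269 lower, the other tests and fits 554 to 724 and 489 to 679, and leaving out 1 library 420 to 831 and 328 to 709. The cause of these shifts was not tested. HAP1, CIT3, YHC1 and RGI1 were not called on the TPM scale, where HAC1 was (adjusted p = 0.0433). SUS1 and CIT2 were called in the fit of 7 groups (adjusted p = 0.0264 and 0.0303), and SUS1 with the offset (adjusted p = 0.0441).

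The correlations of same-numbered deviations from the group means were −0.41, 0.23 and −0.44, and not every library was closest to its own number. Across numbers, h-yU1C replicate 3 with WT replicate 1, the deepest library of each group, gave 0.59. The correlation of h-yU1C replicate 1 with WT replicate 3 was 0.57, and the remaining values ran from −0.52 to 0.07. Deviations from a mean of 3 libraries are tied to each other, so these values cannot decide whether the replicate numbers pair the libraries. Whether libraries of different groups share a technical effect was not tested. With the replicate number as a block, 724 genes were higher and 507 lower, and for the interaction, with the block within density, 444 and 331. At 3 libraries a group an exact test of a single value cannot go below p = 0.1.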

Other observations

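Further gene groups of the high-density comparison are given by their counts, to be read against 16.0% higher and 12.6% lower of all genes tested. Counts with a library left out are to be read against the calls of all genes in that fit, which changed too. Of 33 assembly factors of the respiratory complexes 10 were higher and none lower in h-yU1C, of 7 dehydrogenases that feed electrons to the chain 5 and none, and of 19 genes of coenzyme Q and heme synthesis 9 and 3. Without h-yU1C replicate 1, h-yU1C replicate 2 and WT replicate 1, the higher counts were 6, 5 and 5 for assembly, 2 in each case for the dehydrogenases and 3 in each case for coenzyme Q and heme. Of 24 hexose transporter and glucose sensing genes 9 were higher and 1 lower (7, 4 and 4 higher without those libraries), and of 47 cell wall genes 10 and 2 (6, 5 and 6 higher).

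In other groups both shares were near those of all genes or rested on few calls. Of 44 meiosis genes 7 were higher and 2 lower, and no lower one was left without any of those 3 libraries. Of 22 genes of peroxisomal beta-oxidation 5 were higher and 3 lower (2 and none in each case). Of 30 iron genes 5 were higher and 4 lower (2 and 2, 2 and 3, and 2 and 2), and of 25 antioxidant genes 5 and 4 (1 and 2, 1 and 1, and 2 and 1). Of 27 genes of the unfolded protein response and calcineurin 5 were higher and 3 lower (4 and 1 in each case), and of 27 quiescence genes 5 and 4 (3 and 2 in each case). RNA polymerase I and III genes counted 6 higher and 5 lower of 36 (4 and 2, 3 and 2, and 3 and 2). RNA decay genes counted 1 and 1 of 25 (none in each case, 5 lower without WT replicate 2 and 4 higher without WT replicate 3), and HAP activators 1 and 1 of 6 (4 higher without WT replicate 2).

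More genes were lower than higher in ergosterol synthesis (2 higher and 6 lower of 27), the proteasome (1 and 4 of 36), translation factors (1 and 7 of 40), actin and tubulin (0 and 4 of 22), histones (0 and 2 of 10), zinc and copper genes (2 and 3 of 13) and the use of other sugars (1 and 3 of 14). These counts are small, and the proteasome's share of lower genes was below that of all genes. Without h-yU1C replicate 1, h-yU1C replicate 2 and WT replicate 1 the lower counts were 4 each for ergosterol, 1 each for the proteasome, 2, 1 and 1 for translation factors, 1, 1 and 0 for actin and tubulin, 0 each for histones and for other sugars, and 2 each for zinc and copper. Without h-yU1C replicate 3, 5 histone genes, 2 proteasome genes and 1 gene of other sugars were lower, and without WT replicate 3, 8 proteasome genes, 3 histone genes and 1 gene of other sugars. Without WT replicate 2, 4 translation factor genes and 1 histone gene were lower. Relative to the median of all genes, the medians of the ergosterol, proteasome, translation factor, cytoskeleton and histone lists were −0.34 to −0.08, and −0.14 to −0.06 on the TPM scale. The calls turned on that scale, where 1780 of all genes were higher and 283 lower. Higher and lower counts there were 5 and 4 for ergosterol, 3 and 2 for the proteasome and 2 and 1 for translation factors. They were 7 and 0 for actin and tubulin, 1 and 0 for histones, 5 and 2 for zinc and copper and 2 and 0 for other sugars. The 8 coding sequences of the mitochondrial genome were below the filter, with 18, 32 and 20 reads in all in h-yU1C libraries and 27, 8 and 25 in WT libraries, after poly-A selection.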
